A study of Mus musculus with 24 samples.

Results

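The genes described here are 50 genes of G2 and mitosis, chosen by name and matched to the table of RNA levels through their mouse Ensembl identifiers. All 50 were found among the 46981 genes of the table. Their levels were followed in mouse CD4 T cells, in 24 libraries that form 2 cohorts of 4 groups with 3 libraries each. In the Acly cohort, knockout (KO) cells came from mice labelled CD4-Cre Aclyfl/fl, in which Cre under the Cd4 promoter is to delete Acly from the thymus onward, also in T cells of the CD8 lineage. In the Pdha1 cohort, KO cells came from mice labelled Pdha1fl/fl CD4CreERT2, whose Cre needs tamoxifen, and no induction schedule is given in the labels. Both cohorts had wild-type (WT) controls labelled only as such, so it is not known whether they carried Cre or floxed alleles. Cells of all 8 groups were cultured with 15% serum and 2 mM glutamine and were either resting, with no stimulus, or activated through CD3 and CD28 for 24 h. The Acly product makes acetyl-CoA from citrate in the cytosol, and the Pdha1 product is a subunit of pyruvate dehydrogenase, which makes it in mitochondria.

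A resting T cell has left the cell cycle, and stimulation through its antigen receptor and CD28 brings it through G1 and S phase before its first division. The genes described here act at the end of that route. Cyclins A2 and B1 with Cdk1 drive entry into mitosis, and the Plk1 and Aurora kinases build the spindle. The kinetochore and its checkpoint hold the chromosomes until they are attached, the anaphase-promoting complex then destroys securin and cyclin B, and the midzone proteins and anillin divide the cell. Their transcription is held down in resting cells by the DREAM complex, which contains MuvB, and is switched on in G2 by MuvB with B-Myb and Foxm1. MuvB binds a promoter element called CHR, the cell cycle genes homology region, often near CCAAT boxes bound by NF-Y.

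Promoter sequences were taken from RefSeq (build GRCm38.p6) over the 250 bases before each annotated start and matched 42 of the 50 genes. The CHR element was searched as TTTGAA or TTCGAA and the NF-Y box as CCAAT, both on either strand. A CHR match was present in 16 of the 42 genes (38.1%) against 19.6% of 27025 genes with a promoter, and a CCAAT match in 32 (76.2%) against 37.5%. Both were present in 15 (35.7%) against 7.93%, and at least 2 CCAAT matches in 20 (47.6%) against 11.5%. These are counts of letters in a window and no test was made. The promoters of 4 genes whose levels are described further on are printed 5′ to 3′ on the strand of the gene, with both kinds of match in capitals (ATTGG and TTCAAA are CCAAT and TTTGAA on the other strand) and, in Ube2c, CCAAT matches on opposite strands that share bases. They run from 250 bases before the RefSeq start to that start, or to 25 bases inside the gene where GENCODE begins it earlier. Ube2c (chr2:164769679-164769922, + strand) has 6 CCAAT matches and 1 CHR match, the latter beginning at base -29 from the RefSeq start. Ccnb1 (chr13:100786546-100786736, - strand) has 2 CCAAT matches and no CHR match, Plk1 (chr7:122159185-122159434, + strand) has 1 CCAAT match and no CHR match, and Cdc20 (chr4:118437344-118437593, - strand) has 2 CCAAT matches and 1 CHR match, at base -18.
Ube2c: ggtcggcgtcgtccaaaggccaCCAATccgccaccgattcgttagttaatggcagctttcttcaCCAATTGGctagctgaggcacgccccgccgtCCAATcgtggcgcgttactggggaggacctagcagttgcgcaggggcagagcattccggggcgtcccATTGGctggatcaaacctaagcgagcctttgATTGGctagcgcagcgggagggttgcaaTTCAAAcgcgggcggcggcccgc
Ccnb1: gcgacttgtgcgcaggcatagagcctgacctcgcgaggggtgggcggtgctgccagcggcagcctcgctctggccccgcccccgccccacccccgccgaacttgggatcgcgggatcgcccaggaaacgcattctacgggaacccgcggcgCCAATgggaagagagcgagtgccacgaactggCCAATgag
Plk1: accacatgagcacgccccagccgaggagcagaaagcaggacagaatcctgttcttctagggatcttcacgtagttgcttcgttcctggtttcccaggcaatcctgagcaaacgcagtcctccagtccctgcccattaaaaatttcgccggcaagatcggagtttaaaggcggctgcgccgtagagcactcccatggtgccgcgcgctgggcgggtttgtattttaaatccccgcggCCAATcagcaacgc
Cdc20: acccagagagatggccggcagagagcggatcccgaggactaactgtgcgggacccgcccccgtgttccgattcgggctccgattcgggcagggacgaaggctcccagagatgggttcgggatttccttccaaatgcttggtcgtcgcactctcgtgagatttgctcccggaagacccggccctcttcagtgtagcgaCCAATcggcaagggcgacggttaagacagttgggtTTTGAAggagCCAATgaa

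The libraries held 388902 to 1087675 counts, recovered from the deposited values in RPM (reads per 1000000 reads), so 1 count was worth 0.677 to 2.28 RPM and a count of 0 allows up to 3 counts, or 2.03 to 6.83 RPM. Such floors and the count intervals given further on cover counting error only. As a check of the labels, Acly stood at 104.0 to 110.7 RPM in activated WT and 10.6 to 15.0 RPM in activated KO cells of the Acly cohort. Pdha1 overlapped between genotypes of the Pdha1 cohort over all libraries (19.996 to 30.4 RPM in activated KO, 5.35 to 84.7 RPM in activated WT). The 5.35 RPM belonged to the library labelled WT activated 3, while WT activated 1 and 2 were at 84.7 and 40.8 RPM, above every activated KO library. At rest Pdha1 was at 7.33, 0 and 25.9 RPM in KO and 6.78, 3.14 and 6.01 RPM in WT libraries. The T cell genes Cd3e, Cd4, Cd28 and Lck were above 0 in all 24 libraries. Genes for receptors of smell and pheromones, whose RNA has no known place in a T cell, summed to 95328 to 109574 RPM in the 6 resting Acly libraries and 30101 to 40961 RPM in the 6 activated ones. In the Pdha1 cohort the library labelled WT activated 3 resembled resting cells (105373 RPM of receptor genes and 560.1 RPM summed over 16 T cell genes), and that labelled KO resting 3 resembled activated cells (66285 and 2110.1 RPM), so Pdha1 results are given with and without both. Erythroid genes summed to 598.6 to 32768 RPM in the Pdha1 cohort. In bulk samples such as these, fewer cells in mitosis and less of these RNAs per cell cannot be told apart.

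The average level of the 50 genes set the activated cells of the Acly cohort apart from all other groups. The mean of log2(RPM + 0.5) over the genes was 4.48 to 4.70 in activated Acly WT libraries and 3.95 to 4.06 in activated Acly KO libraries, so these groups did not overlap. It was 2.33 to 3.13 in resting Acly WT, 2.79 to 3.02 in resting Acly KO and 2.50 to 3.25 over all 12 Pdha1 libraries, activated or not. The order of these groups below activated Acly KO cannot be given, since their ranges overlap. Summed over the genes, activated Acly WT cells had 1896.0 to 2368 RPM, activated Acly KO cells 1448 to 1658 RPM, and the other 18 libraries 530.9 to 850.8 RPM. Of the 50 genes, 47 to 50 lay above the floor in activated Acly WT libraries, 44 to 46 in activated KO, and 29 to 35 in resting libraries of that cohort.

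**Figure D1:**
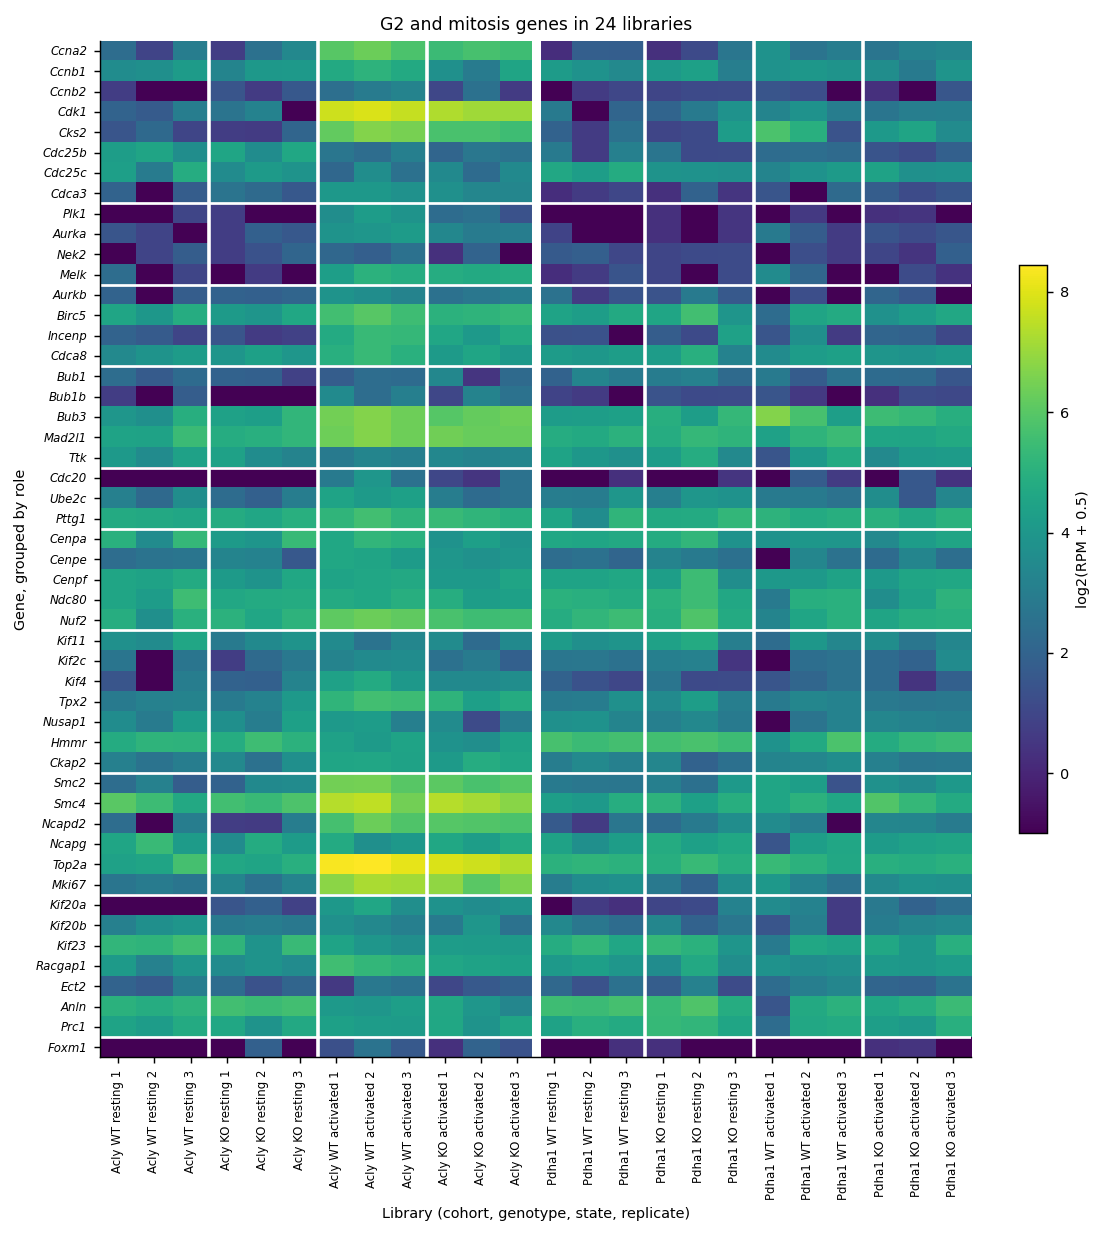
Heat map of log2(RPM + 0.5) for the 50 genes (rows, grouped by role between white lines) in the 24 libraries (columns, grouped by cohort, state and genotype). The activated Acly columns are brighter in most rows, the WT columns more than the KO ones, while rows such as Hmmr, Anln and Kif23 are bright in resting columns as well.

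**Figure D2:**
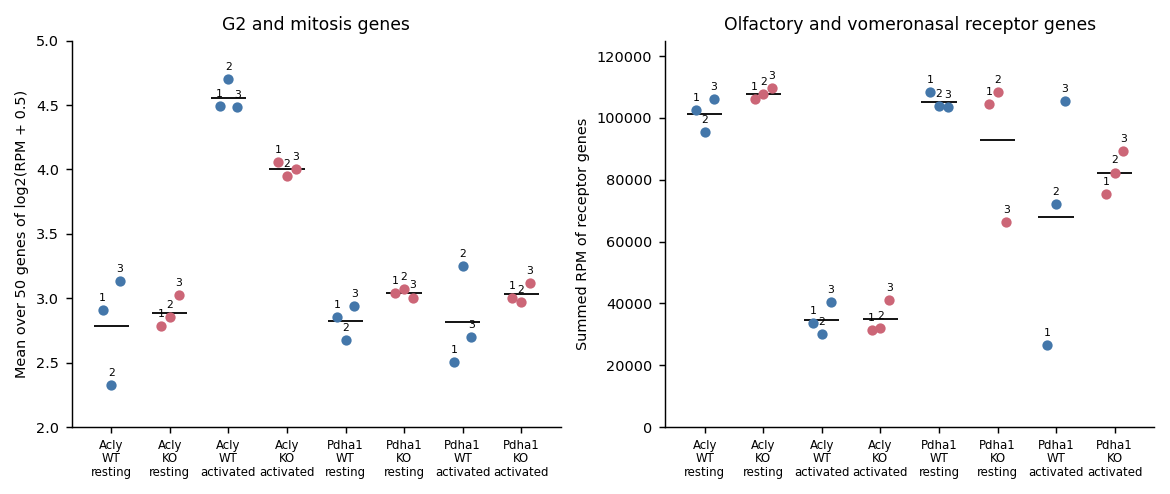
Left, the mean of log2(RPM + 0.5) over the 50 genes in each library (points, numbered by replicate; lines, group means); right, the summed RPM of receptor genes in the same libraries. Activated Acly WT libraries lie at 4.48 to 4.70 and KO libraries at 3.95 to 4.06 on the left, at 30101 to 40961 RPM together on the right.

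Activation of WT cells in the Acly cohort raised most of the genes. In a limma fit over all 31311 genes tested, 32 of the 50 passed an adjusted p of 0.05 as higher, against 21.4% of all genes, and 4 as lower, against 23.8%; 14 passed in neither direction. Their median log2 change was 1.68 (1.62 with genes absent at rest set to the bound that their floor allows), against -0.61 over all genes tested, and the receptor genes' median was -1.52. Over all genes, 6700 were called higher and 7447 lower with the deposited scaling, 7813 and 4563 after TMM-style scaling, which moved the median of all genes to -0.29, and 6657 and 2998 with DESeq2 on recovered counts. Under those, 33 and 33 of the 50 genes were called higher and 1 and 0 lower.

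Cyclins, Cdk1 and its direct regulators included the largest rises. Cdk1, the kinase at the centre of mitotic entry, was at 3.48, 2.82 and 7.45 RPM in the 3 resting WT libraries and 214, 242 and 194 RPM in the 3 activated ones. All 3 activated libraries lay far above all resting ones, and the log2 change was 5.52 ± 0.95 (SE, limma, adjusted p = 0.00151). Cks2, a small subunit that binds cyclin-dependent kinases, went from 2.68 ± 1.40 RPM (SD, n = 3) to 89.2 ± 15.7 RPM, a log2 change of 4.90 ± 0.43 (limma, adjusted p = 1.72e-12). Ccna2, cyclin A2, went from 4.498 ± 3.02 to 65.5 ± 12.6 RPM, a log2 change of 3.93 ± 0.53 (limma, adjusted p = 1.72e-06). Ccnb1, cyclin B1, had counts in every resting library. The part of the receptor-like background in such resting levels, here and in the genes below, was not tested. Ccnb1 was at 11.6, 12.7 and 17.9 RPM at rest and 25.996, 34.1 and 26.5 RPM after activation, without overlap, a log2 change of 1.02 ± 0.40 (limma, adjusted p = 0.0322). Cdca3, part of the ligase that degrades the Cdk1 inhibitor Wee1, rose from 2.15 to 15.01 RPM, and Ccnb2, cyclin B2, from 1 recovered count over 3 resting libraries to 6.97 RPM, a ratio of 15.8 with a 95% exact counting interval of 2.58 to 650.0. Cdc25b and Cdc25c, phosphatases that activate Cdk1, were called lower, at log2 changes of -1.42 ± 0.44 and -1.26 ± 0.49 (limma, adjusted p = 0.00865 and 0.0327). The receptor genes' median was -1.52 in the same libraries, and the part of that background in these 2 falls was not tested. Neither gene was called lower after TMM-style scaling or by DESeq2.

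Among the mitotic kinases, 3 of 4 rose. Plk1, the polo-like kinase of the centrosomes and kinetochores, had a single count in the 3 resting WT libraries and 11.98, 18.2 and 14.1 RPM after activation. The ratio of counts per depth was 33.6, with a 95% exact counting interval of 5.76 to 1352, and limma called the rise (adjusted p = 1.30e-05). Aurka, the Aurora kinase of the spindle poles, rose from 3 counts to 15.5 ± 1.89 RPM, a ratio of 11.6 (3.77 to 58.2; limma, adjusted p = 1.37e-05). Melk, a kinase whose transcript follows the cell cycle, rose from 2.04 ± 2.37 to 26.9 ± 7.27 RPM, a log2 change of 3.95 ± 0.64 (limma, adjusted p = 3.00e-06). Nek2, which separates centrosomes, was at 1.46 and 4.14 RPM and did not pass the test.

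All 4 genes of the chromosomal passenger complex, the Aurora B unit that corrects spindle attachments and later directs the division furrow, rose. Incenp, the scaffold, went from 3.48, 2.82 and 1.49 to 26.999, 40.5 and 38.9 RPM, a log2 change of 3.57 ± 0.48 (limma, adjusted p = 6.72e-08). Aurkb, its kinase, changed by 2.64 ± 0.64 and Birc5, survivin, by 1.22 ± 0.32 on the log2 scale (limma, adjusted p = 8.66e-04 and 0.00184). Cdca8, borealin, rose from 14.1 to 34.4 RPM. The activated and resting WT libraries overlapped in none of the 4.

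Of 5 spindle checkpoint genes, 3 rose. Bub3 went from 19.2 ± 9.28 to 90.6 ± 12.1 RPM (log2 change 2.30 ± 0.31) and Mad2l1, whose product inhibits Cdc20, from 28.9 ± 12.5 to 89.6 ± 11.97 RPM (log2 change 1.69 ± 0.29), with limma adjusted p-values of 9.68e-08 and 6.27e-06. Bub1b rose from 3 counts to 7.88 RPM, a ratio of 5.71 (1.75 to 29.5). The kinases Bub1, at 3.98 RPM at rest and 4.04 RPM after activation, and Ttk, at 16.1 and 8.13 RPM, did not pass the test.

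The substrate adaptor Cdc20 and the ubiquitin-conjugating enzyme Ube2c of the anaphase-promoting complex rose. Cdc20 had no count in the 3 resting WT libraries and 6.98, 15.02 and 5.28 RPM after activation, at least 2.24-fold higher than the mean floor of 3 counts per resting library (limma, adjusted p = 3.83e-05). Ube2c was at 8.12, 4.23 and 11.9 RPM at rest and 21.99, 17.4 and 20.3 RPM after activation, without overlap, a log2 change of 1.35 ± 0.49 (limma, adjusted p = 0.0218). Pttg1, securin, had counts in both states, at 25.3 ± 1.44 and 39.7 ± 6.92 RPM, and its log2 change of 0.63 ± 0.30 missed the threshold (limma, adjusted p = 0.0855).

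Of 5 centromere and kinetochore genes, 2 rose, namely Cenpe, a kinetochore motor, and Nuf2, a part of the Ndc80 complex that grips microtubules. Cenpe rose from 5.41 ± 0.687 to 21.3 ± 3.27 RPM and Nuf2 from 24.4 ± 10.2 to 73.1 ± 6.65 RPM, log2 changes of 1.88 ± 0.45 and 1.66 ± 0.31 (limma, adjusted p = 8.28e-04 and 2.97e-05). Ndc80, the partner of Nuf2, was at 28.8 and 27.2 RPM, Cenpf at 23.8 and 23.8 RPM, and Cenpa, the centromeric histone, at 27.2 and 30.8 RPM. These 3 did not pass the test.

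Of 7 spindle genes, 4 rose. Tpx2, which activates Aurora A on the spindle, went from 8.12 ± 1.03 to 42.7 ± 5.99 RPM (log2 change 2.32 ± 0.37, limma, adjusted p = 2.32e-06). The motor Kif4 changed by 3.25 ± 0.65 and Ckap2, a spindle protein, by 1.63 ± 0.40 on the log2 scale (limma, adjusted p = 1.48e-04 and 9.72e-04). Kif2c, which removes tubulin from microtubule ends, rose from 3.92 to 10.5 RPM. Nusap1, a microtubule-bundling protein, was at 12.2 RPM at rest and 14.4 RPM after activation, Kif11, the motor that keeps the spindle bipolar, at 15.97 and 8.73 RPM, and Hmmr, a spindle-associated protein, at 32.5 and 20.2 RPM, none past the test.

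Of 6 genes for condensin and mitotic chromosome structure, 5 rose. Mki67, the Ki-67 protein that coats mitotic chromosomes, was at 5.80, 7.05 and 5.96 RPM at rest and 111, 150.2 and 139.97 RPM after activation, a log2 change of 4.30 ± 0.32 (limma, adjusted p = 2.15e-14). Top2a, topoisomerase II alpha, which untangles sister chromatids, went from 20.9, 22.6 and 50.8 to 326, 349.6 and 277 RPM, a log2 change of 3.43 ± 0.28 (limma, adjusted p = 2.23e-13). Each activated library lay above each resting one for both genes. The condensin genes Smc2 and Ncapd2 changed by 3.85 ± 0.39 and 4.49 ± 0.98 (limma, adjusted p = 7.40e-11 and 0.00453), and Smc4 rose from 44.9 to 148 RPM. Ncapg, another subunit of the same complex, was at 27.9 RPM at rest and 18.5 RPM after activation and did not pass the test. Ncapd2, Top2a and Foxm1 overlap exons of another gene on their own strand, so their reads may be shared. A further 13 of the 50 overlap exons on the other strand, among them Ube2c (with Tnnc2), Cdc20 (Elovl1), Plk1 (Gm44985), Kif20a (Cdc23) and Nusap1 (Oip5), and without a known strand setting their reads may be shared as well.

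The 7 midzone and cytokinesis genes were divided. Kif20a, a midzone motor that brings the passenger complex there, had no count in resting WT libraries and 15.98, 23.8 and 12.3 RPM after activation, at least 4.28-fold higher than the resting floor (limma, adjusted p = 4.23e-09). Racgap1, which with Kif23 forms centralspindlin, rose from 13.6 ± 4.62 to 39.3 ± 6.34 RPM (log2 change 1.54 ± 0.35, limma, adjusted p = 4.24e-04). Kif23 itself and Anln, anillin of the contractile ring, were called lower at -1.27 ± 0.36 and -0.87 ± 0.34 (limma, adjusted p = 0.00374 and 0.0317). Kif23 was at 37.2, 35.3 and 46.3 RPM at rest and 21.99, 15.02 and 12.3 RPM after activation, and Anln at 32.6, 28.2 and 34.3 and 16.98, 15.02 and 19.4 RPM, each without overlap. Of these falls, that of Kif23 was still called after TMM-style scaling and that of Anln was not; DESeq2 called neither, and edgeR called Kif23 and Cdc25b. The part of the receptor-like background in these falls was not tested. Prc1, the midzone bundler, was at 22.4 and 18.6 RPM, Ect2, which activates RhoA, at 4.58 and 4.20 RPM, and Kif20b at 11.9 and 10.4 RPM, none past the test. Foxm1, the transcription factor of the G2 genes, had no count at rest and 1.99, 5.53 and 2.64 RPM after activation. It was called higher (limma, adjusted p = 0.00501), but its activated mean lay under the resting floor, so no fold is given.

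**Figure D3:**
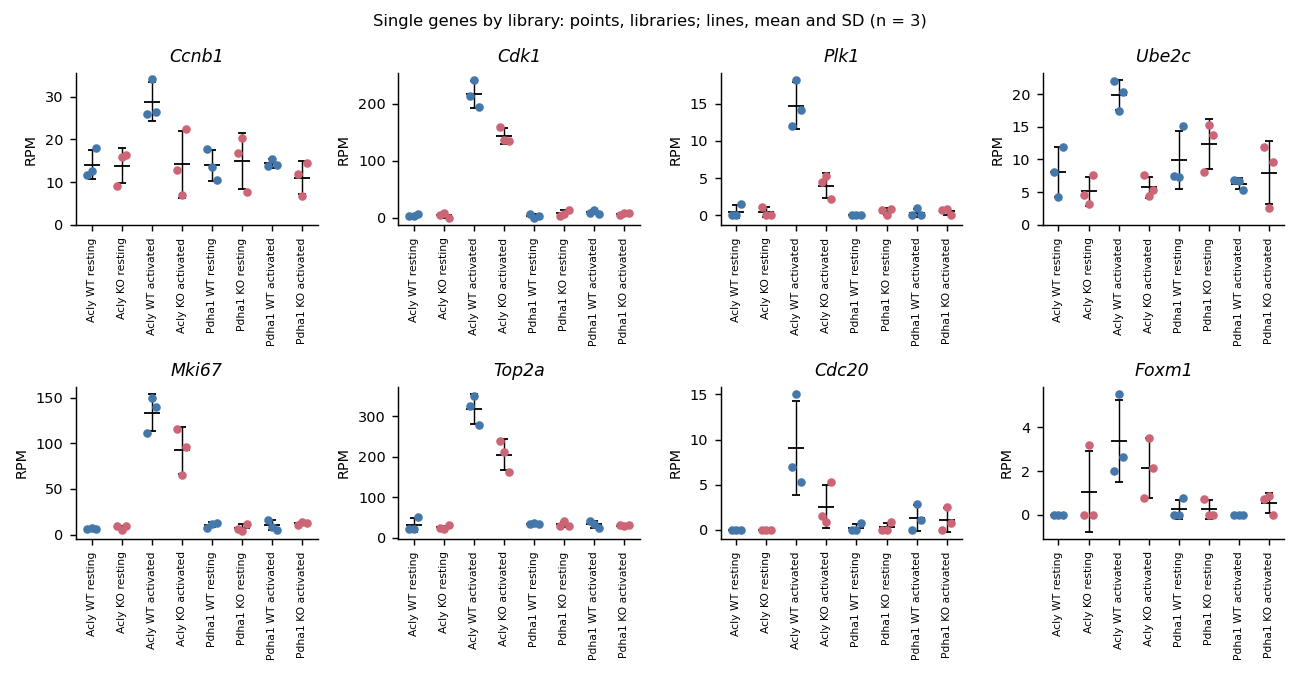
RPM of 8 genes in each library (points; blue WT, red KO) with the mean and SD of each group (n = 3). Cdk1, Mki67 and Top2a are high only in activated Acly cells, and Ube2c, Plk1 and Cdk1 in activated Acly WT libraries lie above every activated KO library of that cohort.

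In Acly KO cells, activation raised 21 of the 50 genes, against 20.7% of all genes, and lowered 3, against 26.7% (limma). All 21 were among the 32 that rose in WT cells, and 11 passed the test in WT cells alone, among them Ccnb1, Ccnb2, Ube2c, Aurkb, Cdca8, Nuf2, Kif4 and Foxm1. Whether these 11 differ between genotypes is the interaction given further on, and none passed it. The median log2 change was 0.79 in KO cells (0.63 with genes absent at rest at their bound), against -0.67 over all genes and -1.62 for the receptor genes. Over all genes, 6483 were called higher and 8363 lower, and 7656 and 5162 after TMM-style scaling, under which 26 of the 50 were called higher and 2 lower. EdgeR called 28 and 2 of the 50, and DESeq2 26 and 1. Their totals over all genes in KO cells are not given, so these counts cannot be set against a share of all genes. Cdk1 changed by 5.56 ± 0.95, Mki67 by 3.49 ± 0.32 and Top2a by 2.95 ± 0.28 on the log2 scale (limma, adjusted p = 0.0014, 7.24e-12 and 1.28e-11). Melk rose from 1 count over the resting KO libraries to 28.1, 26.5 and 27.9 RPM, a ratio of 71.5 with a 95% exact counting interval of 12.5 to 2853. Ccnb1 was at 9.14, 15.99 and 16.4 RPM in resting KO and 12.9, 7.06 and 22.5 RPM in activated KO cells, and Ube2c at 4.57, 3.19 and 7.57 and 7.56, 4.41 and 5.35 RPM. Both overlapped between states, with log2 changes of -0.07 ± 0.40 and 0.20 ± 0.49 (limma, adjusted p = 0.899 and 0.741), and Ccnb1 turned positive under TMM-style scaling, edgeR and DESeq2. Cdc20, which was called, had no count in resting KO cells and a mean of 2.58 RPM after activation, under the floor. The falls were in Cdc25b, Anln and Hmmr, at -1.80 ± 0.44, -1.56 ± 0.34 and -1.16 ± 0.33 (limma, adjusted p = 0.00103, 2.08e-04 and 0.00391).

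**Figure D4:**
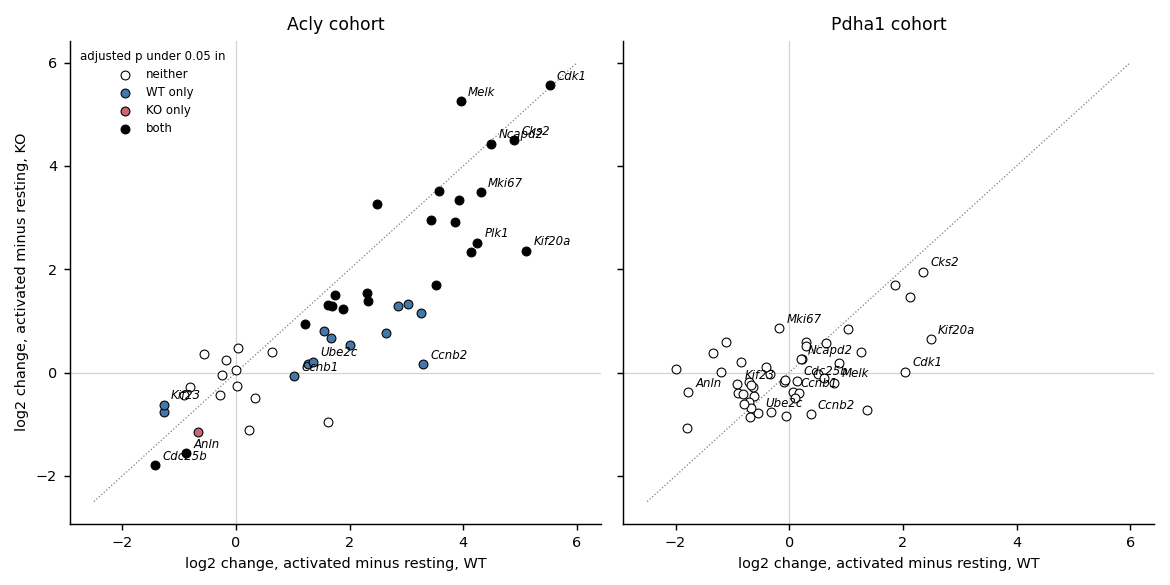
Log2 change on activation in WT (horizontal axis) and KO cells (vertical axis) for each gene, in the Acly cohort (left, 50 genes) and the Pdha1 cohort (right, 48 genes); fill shows where limma's adjusted p was under 0.05 and the dotted line marks equal changes. On the left Cdk1, Melk and Cks2 lie at the top right, and Ccnb2, Ccnb1 and Ube2c are called in WT cells alone; on the right no gene is called.

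Between activated Acly KO and WT cells, the log2 change, from means of log2(RPM + 0.5), was negative for 43 of the 50 genes and positive for 7, with a median log2 change of -0.50 against -0.05 over all 31311 genes. By mean RPM, 41 were lower and 9 higher in KO cells, the latter including Bub1 and Kif11, whose log2 changes were negative. The count of positive log2 changes was 10 after TMM-style scaling, 10 after quantile normalization, 12 with edgeR and 11 with DESeq2. No single gene of the 50 passed limma's adjusted threshold, and among all genes 2 did (0.00639%). At an unadjusted p under 0.05, 10 of the 50 were lower, against 2.14% of all genes, and 0 were higher. In 20 of the 50, every KO library lay below every WT library, against 7.38% of all genes, and in 0 every KO library lay above, against 3.56%. Among genes with a mean of at least 10 RPM over the 6 libraries, every KO library lay below every WT library in 17 of 35 of the described genes, against 14.5% of all. The share at an unadjusted p under 0.05 and the median of all genes are not given at that level. The count at an unadjusted p under 0.05 fell to 4 without the third activated KO library or the second activated WT library and to 6 without the first activated WT library or with quantile normalization. It rose to 17 with edgeR and 22 when only the 6 activated libraries were fitted. Shares of all genes under these settings are not given, so shifts of the whole table and of the 50 genes cannot be told apart. The count of 20 without overlap was 17 after TMM-style scaling, against 5.15% of all genes, and 16 after quantile normalization, against 4.59%. Under both, 0 of the 50 had every KO library above, against 4.76% and 4.43% of all genes.

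The gene with the smallest p was Ube2c, the ubiquitin-conjugating enzyme whose promoter was printed above. It stood at 7.56, 4.41 and 5.35 RPM in activated KO libraries and 21.99, 17.4 and 20.3 RPM in WT libraries. All KO values lay far below all WT values. The log2 change was -1.73 ± 0.49 (SE, limma, adjusted p = 1.0, unadjusted 9.59e-04). It was called in a fit of only the activated libraries (adjusted p = 0.0219, 39 genes called in all) and by edgeR (adjusted p = 0.026, 56 genes), and not by DESeq2, which called 4 genes. Cdc20, the adaptor of the same complex, was at 1.51, 0.881 and 5.35 RPM in KO and 6.98, 15.02 and 5.28 RPM in WT libraries, which overlap, a log2 change of -1.79 ± 0.79 (limma, adjusted p = 1.0). Pttg1 averaged 35.8 and 39.7 RPM with overlap.

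Among cyclins and Cdk1 regulators, 7 of 8 were lower in KO cells on average and 5 had every KO library below every WT library. Ccnb1 was at 12.9, 7.06 and 22.5 RPM in KO and 25.996, 34.1 and 26.5 RPM in WT libraries, with the third KO library close to the WT range, a log2 change of -1.14 ± 0.40 (limma, adjusted p = 1.0, unadjusted 0.00632). Cdk1 was at 159, 137 and 135 RPM in KO and 214, 242 and 194 RPM in WT libraries, and the groups were wide apart relative to their spread. Its log2 change was -0.59 ± 0.95 in a fit whose spread is shared with the resting libraries, where Cdk1 ranged from 0 to 8.52 RPM. Cks2 was at 50.004 ± 4.23 and 89.2 ± 15.7 RPM, Ccna2 at 46.6 ± 4.28 and 65.5 ± 12.6 RPM and Cdca3 at 10.7 ± 1.84 and 15.01 ± 1.54 RPM, in that order of KO and WT (SD, n = 3). Ccnb2 averaged 2.62 and 6.97 RPM with overlap. Cdc25b averaged 5.10 and 6.22 RPM, and Cdc25c, the only one of the 8 higher in KO cells, 8.56 and 7.04 RPM.

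Of the mitotic kinases, Plk1 and Aurka did not overlap between genotypes. Plk1 was at 4.53, 5.29 and 2.14 RPM in KO and 11.98, 18.2 and 14.1 RPM in WT libraries, a log2 change of -1.82 ± 0.75 (limma, adjusted p = 1.0, unadjusted 0.02). Aurka was at 9.83, 7.06 and 7.49 RPM in KO and 13.98, 15.02 and 17.6 RPM in WT libraries, a log2 change of -0.90 ± 0.63. Nek2 averaged 1.43 and 4.14 RPM, near the floor, and Melk 27.5 and 26.9 RPM with nearly equal levels.

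The chromosomal passenger complex was the role in which every gene was lower in every KO library. Cdca8 was at 17.4, 22.98 and 16.1 RPM in KO and 31.01, 40.5 and 31.8 RPM in WT libraries, a log2 change of -0.86 ± 0.35 (limma, adjusted p = 1.0, unadjusted 0.0172). Birc5 was at 33.4, 34.5 and 38.6 and 47.1, 62.9 and 45.2 RPM, Aurkb at 5.29, 6.17 and 7.49 and 13.98, 11.9 and 8.81 RPM, and Incenp at 23.5, 16.8 and 26.8 and 26.999, 40.5 and 38.9 RPM. Their log2 changes were -0.52 ± 0.32, -0.81 ± 0.64 and -0.66 ± 0.48, and none of these 3 reached an unadjusted p of 0.05 with limma. In Incenp the gap between the highest KO and the lowest WT library was small.

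No gene of the spindle checkpoint separated the genotypes. Bub3 averaged 72.8 ± 9.77 RPM in KO and 90.6 ± 12.1 RPM in WT cells and Mad2l1 79.1 ± 5.11 and 89.6 ± 11.97 RPM. Bub1 averaged 4.995 and 4.04 RPM, Bub1b 5.23 and 7.88 RPM and Ttk, higher in KO cells, 9.43 and 8.13 RPM. Log2 changes ran from -0.74 to 0.21 over the 5 genes, with a median of -0.17, whereas the 4 passenger complex genes had a median of -0.73; the difference between these roles was not tested.

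All 5 centromere and kinetochore genes were lower in KO cells on average, 3 without overlap. Cenpa was at 13.6, 19.4 and 13.9 RPM in KO and 23.99, 36.5 and 31.8 RPM in WT libraries, a log2 change of -0.95 ± 0.39 (limma, adjusted p = 1.0, unadjusted 0.0208). Nuf2 was at 52.5, 45.2 and 46.2 and 68.3, 80.7 and 70.2 RPM and Cenpe at 15.1, 13.2 and 14.99 and 23.99, 22.2 and 17.6 RPM, log2 changes of -0.60 ± 0.31 and -0.53 ± 0.45. Cenpf averaged 18.6 and 23.8 RPM and Ndc80 22.6 and 27.2 RPM, with overlap.

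Of the spindle genes, Tpx2, Kif4 and Kif2c had every KO library below every WT library. Tpx2 was at 34.9, 19.4 and 27.9 RPM in KO and 36.04, 47.7 and 44.3 RPM in WT libraries, Kif4 at 10.6, 10.6 and 11.8 and 20.98, 26.9 and 15.9 RPM and Kif2c at 5.29, 7.06 and 3.21 and 8.98, 11.1 and 11.5 RPM. Their log2 changes were -0.66 ± 0.37, -0.89 ± 0.65 and -1.01 ± 0.73. Nusap1 averaged 6.86 ± 4.82 and 14.4 ± 5.61 RPM, a log2 change of -1.23 ± 0.52 (limma, adjusted p = 1.0, unadjusted 0.0228), with the second KO library at 1.76 RPM and overlap between groups. Hmmr averaged 15.8 and 20.2 RPM, Kif11 8.82 and 8.73 RPM and Ckap2 23.1 and 22.6 RPM.

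For chromosome structure, Top2a separated the genotypes and condensin did not. Top2a was at 238, 211 and 163 RPM in KO and 326, 349.6 and 277 RPM in WT libraries, a log2 change of -0.64 ± 0.28 (limma, adjusted p = 1.0, unadjusted 0.0258). Mki67 was at 116, 64.9 and 96.2 RPM in KO and 111, 150.2 and 139.97 RPM in WT libraries, where the first KO library exceeded the first WT library, a log2 change of -0.56 ± 0.32. Condensin genes averaged, in KO and WT cells, 60.3 and 78.9 RPM for Smc2, 140.2 and 148 RPM for Smc4, 58.7 and 62.3 RPM for Ncapd2 and 23.2 and 18.5 RPM for Ncapg. All 4 overlapped between genotypes.

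Of the midzone and cytokinesis genes only Racgap1 had every KO library below every WT library. It was at 23.5, 21.2 and 20.4 RPM in KO and 46.1, 38.1 and 33.6 RPM in WT libraries, a log2 change of -0.83 ± 0.35 (limma, adjusted p = 1.0, unadjusted 0.0225). Kif20a averaged 13.002 and 17.4 RPM, Kif20b 9.05 and 10.4 RPM and Ect2 2.45 and 4.20 RPM. Kif23 averaged 17.7 and 16.5 RPM, Anln 16.6 and 17.1 RPM and Prc1 20.3 and 18.6 RPM. Foxm1 was at 0.755, 3.53 and 2.14 RPM in KO and 1.99, 5.53 and 2.64 RPM in WT libraries, at or near the floor in both, with overlap.

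**Figure D5:**
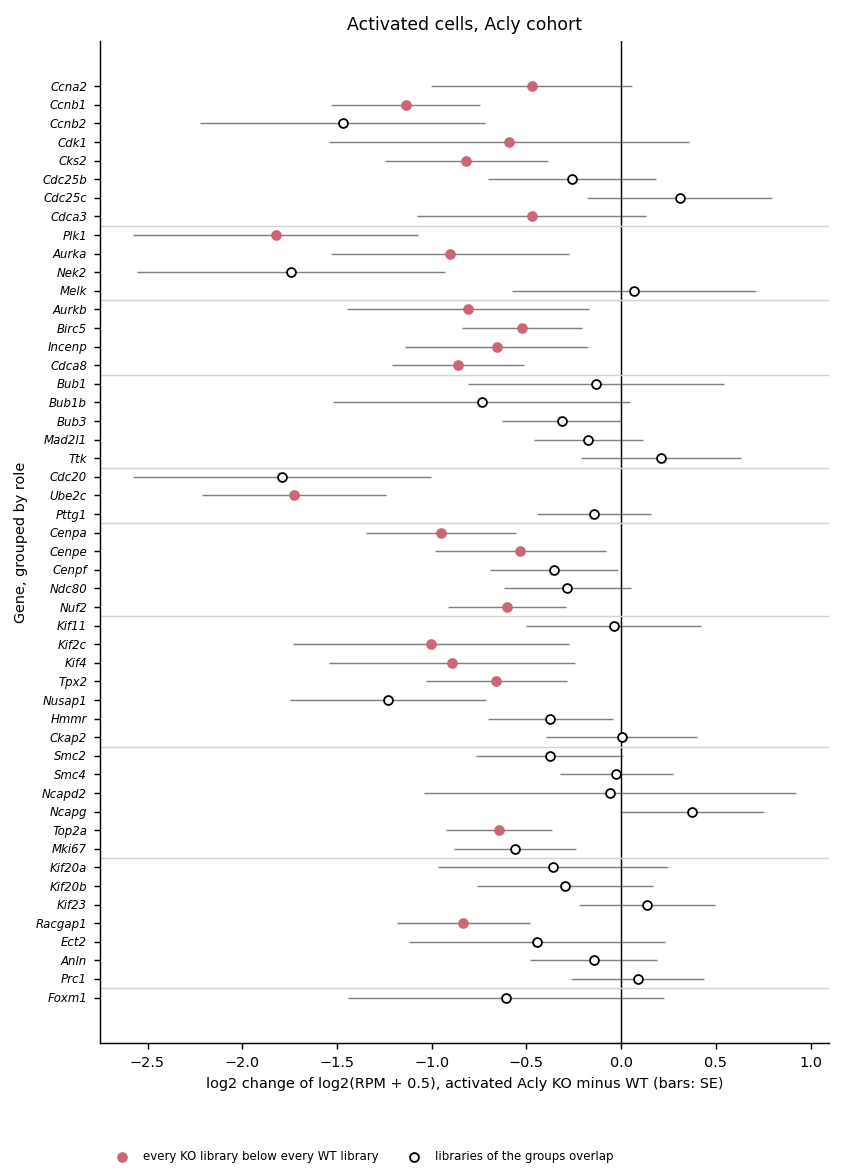
Log2 change between activated Acly KO and WT cells for each of the 50 genes, grouped by role (points; bars, SE from limma); filled points are the 20 genes in which every KO library lay below every WT library. Most points lie left of 0, with Plk1, Cdc20, Nek2 and Ube2c farthest, and the checkpoint and condensin genes lie nearer to 0.

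Other measures moved with genotype in the same 6 activated libraries. The summed level of 16 T cell genes was 3826 to 4262 RPM in KO and 4635 to 5177 RPM in WT libraries, none of the 16 at 0 in a whole group. Thy1, one of them, was called lower in KO cells (log2 change -1.28 ± 0.23, limma, adjusted p = 0.0332). The summed level of 9 CD8 and natural killer cell genes was 57.6 to 72.5 RPM in KO and 34.4 to 52.9 RPM in WT libraries, with Ncr1 at 0 in all KO libraries. The sum of 12 B cell genes was 107.2 to 148.3 RPM in KO and 127.8 to 155.8 RPM in WT libraries, that of 10 myeloid genes 14.1 to 39.6 and 23.8 to 30.9 RPM, and that of 9 erythroid and platelet genes 21.2 to 545.6 and 41.9 to 91.0 RPM. Receptor genes summed to 31451 to 40961 RPM in KO and 30101 to 40313 RPM in WT libraries, and their median log2 change was 0.00. The part of the lower T cell sum and of the higher CD8 and natural killer sum in the lower mitotic levels was not tested.

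The 5 lists of other cell cycle genes also had medians below 0 in activated KO against WT cells, and how they differ from the 50 genes was not tested. Of 66 further mitotic genes, 0 were called by limma in activated KO against WT cells, 19 had a positive log2 change, the median was -0.30, and 8 had every KO library below and 2 every KO library above WT, against 7.38% and 3.56% of all genes. The same shares are the background of the counts for the other lists. Among genes with a mean of at least 10 RPM over the 6 libraries the share below was 14.5%, and the lists were not counted at that level. The 2 with the smallest p, Depdc1b and Kif18b, were under the floor in both genotypes. For 16 condensin and cohesin genes the median was -0.17 (4 below and 0 above without overlap), with Ncapd3 at 10.4 ± 1.5 RPM in KO and 18.4 ± 6.0 RPM in WT cells (SD, n = 3) and Ncapg2 at 20.9 ± 1.3 and 27.6 ± 3.9 RPM. For 17 genes of the anaphase-promoting complex it was -0.10 (3 below, 2 above), with Anapc5 at 151.6 ± 2.0 and 112.2 ± 10.8 RPM and the activator Fzr1 at 62.9 ± 7.1 and 93.4 ± 5.6 RPM. For 22 genes of MuvB, B-Myb and the E2F family it was -0.12 (5 below, 4 above), with E2f5 at 1.70 ± 0.60 and 5.71 ± 1.98 RPM and Rb1 at 10.2 ± 2.3 and 5.85 ± 1.07 RPM. For 40 S phase genes it was -0.13 (8 below, 2 above), with Tk1, thymidine kinase, at 19.6 ± 3.8 and 37.4 ± 7.0 RPM and Rrm2, a subunit of ribonucleotide reductase, at 579.7 ± 46.2 and 878 ± 117.4 RPM. In activated WT against resting WT cells, where 21.4% of all genes were called higher and 23.8% lower, limma called 33 of the 40 S phase genes higher and 1 lower, with a median of 3.27, and 32 of the 66 further mitotic genes higher and 5 lower, with a median of 1.48.

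In resting cells of the Acly cohort, limma called none of the 50 genes and none of all genes (0%) between KO and WT. At an unadjusted p under 0.05, 3 were higher in KO cells, against 2.69% of all genes, and 0 lower, and edgeR and DESeq2 called none of the 50. Every KO library was below every WT library in 1 gene, Kif20b (3.74% of all genes), and above in 2, Kif20a and Anln (3.33%). Kif20a was at 2.28, 3.19 and 1.26 RPM in KO libraries and 0 in all WT libraries, a total of 6 counts, so both groups lay at or under the floor and no fold is given (limma, adjusted p = 0.376; 0.0269 without the trend and robust options). Anln was at 48.2, 42.8 and 48.1 RPM in KO and 32.6, 28.2 and 34.3 RPM in WT libraries. Ccnb1 and Ube2c overlapped, with log2 changes of -0.04 ± 0.40 and -0.58 ± 0.49.

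The interaction, the activation change in KO cells minus that in WT cells, was negative for 38 of the 50 genes, with a median of -0.54 against -0.09 over all genes. None passed limma's adjusted threshold among the 50 or among all genes (0%). At an unadjusted p under 0.05, 8 of the 50 were negative, against 2.51% of all genes, and 0 positive, and edgeR and DESeq2 called none of them. The smallest p-values belonged to Kif20a and Ccnb2, at -2.75 ± 0.86 and -3.13 ± 1.06 (limma, adjusted p = 1.0 for both), where resting levels rested on 6 and 0 counts of Kif20a and 5 and 1 counts of Ccnb2 in KO and WT cells. Ccnb1 and Ube2c had interactions of -1.10 ± 0.56 and -1.14 ± 0.69.

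In the Pdha1 cohort, libraries labelled activated were near the resting ones in most of the 50 genes. Receptor genes summed to 75402 to 89323 RPM in its activated KO and 26381 to 105373 RPM in its activated WT libraries. The 16 T cell genes summed to 1291 to 2009 RPM and 560.1 to 3772 RPM in that order. The part of these in the levels of the 50 genes was not tested. The filter kept 48 of the 50 genes, without Plk1 and Foxm1, which were at 0 to 0.97 RPM and 0 to 0.85 RPM in all 12 libraries. Cdk1 was at 6.78, 0 and 3.75 RPM in resting WT and 9.11, 13.5 and 7.50 RPM in activated WT libraries, the latter all higher, and at 3.66, 6.75 and 13.8 and 5.91, 7.69 and 7.98 RPM in resting and activated KO libraries, which overlap. Mki67 was at 7.46, 11.5 and 12.8 and 15.96, 8.70 and 5.35 RPM in resting and activated WT and 6.59, 3.38 and 12.04 and 10.3, 13.7 and 12.8 RPM in resting and activated KO libraries. Cks2 followed the libraries that stood apart. It was at 54.8, 31.01 and 2.14 RPM in activated WT libraries, where the third was as low as resting cells, and at 1.46, 1.69 and 18.1 RPM in resting KO libraries, where the third was as high as activated cells. The remaining levels of the Pdha1 cohort are in the heat map.

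Limma called none of the 48 genes on activation of Pdha1 WT cells and none of all 30357 genes tested (0%), with a median of -0.09 for the 48 and -0.35 for all. At an unadjusted p under 0.05, 5 were higher, against 7.73% of all genes, and 2 lower, against 6.49%. EdgeR called 0 and DESeq2 called 2, Cks2 and Bub3, both higher, and the shares of all genes with these tools are not given. Kif20a and Aurka had the smallest p-values, with 2 recovered counts each in resting WT cells and ratios of counts per depth of 11.7 (2.73 to 105.7) and 5.47 (1.04 to 54.0). Without the libraries labelled WT activated 3 and KO resting 3, limma called 5 of 47 genes higher after activation of WT cells, namely Cks2, Bub3, Kif20a, Aurka and Smc2, against 14.9% of all genes, and 4 lower, namely Anln, Hmmr, Nuf2 and Nusap1, against 12.1%. Neither share of the 47 exceeded that of all genes. In that fit Cks2 changed by 3.68 ± 0.61 and Bub3 by 1.90 ± 0.39 on the log2 scale (limma, adjusted p = 0.000285 and 0.00206). Receptor genes had a median change of -0.83 on activation of WT cells. On activation of Pdha1 KO cells limma called none of the 48 genes (0% of all genes), 1 was higher at an unadjusted p under 0.05, against 1.78% of all genes, and 0 lower, and the median was -0.16 against -0.03 for all genes. Without both libraries 1 gene was called higher, against 7% of all genes, namely Cks2, at 3.01 ± 0.61 (limma, adjusted p = 0.00417).

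Between genotypes of the Pdha1 cohort no gene of the 48 and no gene of all (0%) was called in activated cells, and 1 of the 48 was higher at an unadjusted p under 0.05, against 2.45% of all genes, and 0 lower. The median was 0.12 against 0.26 for all genes and 0.50 for the receptor genes, of which 1052 of 1295 were positive. In 3 genes, Cdc25b, Tpx2 and Ckap2, every KO library lay below every WT library (1.74% of all genes), and in 1, Racgap1, above (3.99%). Racgap1 was at 16.3, 15.4 and 18.4 RPM in KO and 13.7, 11.6 and 12.9 RPM in WT libraries, a log2 change of 0.38 ± 0.43, and Ccnb1 and Ube2c had log2 changes of -0.43 ± 0.48 and 0.10 ± 0.59. Kif20b and Nusap1 had the smallest p-values, at 1.52 ± 0.68 and 1.59 ± 0.81 (limma, adjusted p = 1.0 for both). Kif20b was at 7.39, 9.41 and 10.4 RPM in KO and 2.28, 7.73 and 1.07 RPM in WT libraries, and Nusap1 at 9.61, 8.55 and 7.98 and 0, 5.80 and 8.57 RPM, with 0 in the first WT library. That library was the shallowest of all 24 and had the lowest receptor sum of the cohort (26381 RPM, against 66285 to 108359 RPM in the other 11), with an erythroid sum of 29832 RPM, and the part of these in the results was not tested. Without the libraries labelled WT activated 3 and KO resting 3, limma called none of 47, and 5 were higher and 3 lower at an unadjusted p under 0.05. The share of all genes in that fit is not given, so these counts cannot be set against the 2.45% of the full fit. In resting Pdha1 cells limma called none of the 48 (0% of all genes), 0 reached an unadjusted p of 0.05, and Cdk1 and Kif20a had the smallest p-values. Kif20a was at 1.46, 1.69 and 8.60 RPM in KO and 0, 1.04 and 0.750 RPM in WT libraries, most of it in the KO library that stood apart. For the Pdha1 interaction limma called none of the 48 (0% of all genes), with 0 at an unadjusted p under 0.05 and a median of -0.03 against 0.21 for all genes. EdgeR and DESeq2 called none of the 48 in these 3 contrasts, and without both libraries limma called none of 47 in resting cells or for the interaction.

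The Acly effect and the Pdha1 effect in activated cells, each against the WT cells of its own cohort, were compared in a fit of all 24 libraries. Their difference was negative for 42 of the 50 genes, with a median of -0.66 against -0.30 over all 35290 genes tested, and the receptor genes' median difference was -0.46. Limma called none of the 50 and none of all genes (0%), and edgeR and DESeq2 called none of the 50. At an unadjusted p under 0.05, 6 of the 50 were negative, against 2.66% of all genes, and 0 positive. Nusap1 had the smallest p, at -2.82 ± 1.01, with Ube2c at -1.82 ± 0.78, Racgap1 at -1.21 ± 0.56 and Ccnb1 at -0.71 ± 0.65 (limma, adjusted p = 1.0 for each). After quantile normalization 17 were positive and 1 reached an unadjusted p under 0.05, with a median of -0.38 against -0.05. Without both Pdha1 libraries that stood apart limma called none, and 10 were negative and 1 positive at an unadjusted p under 0.05. Shares of all genes at that p are not given for these alternative fits, so their counts cannot be set against 2.66%. A difference between the effects of Acly and Pdha1 on these genes was not shown.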

How the data were processed

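RNA from 24 libraries of mouse CD4 T cells was sequenced with single-end reads of 75 bp. The authors deposited 1 table of RPM (reads per 1000000 reads) per gene, on build GRCm38 (mm10) per the submitters' processing notes. Aligner, counter, annotation and strand setting: not given in the sources used here. The deposited RPM follow whole counts corrected for chance repeats of a 6-base identifier (4096 sequences). Undoing this left every value within 0.01 of a whole count (100%), giving 388902 to 1087675 counts per library. The labels describe a total RNA kit and mention no such identifiers, so the recovered counts served alternatives and floors only.

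Gene symbols came from GENCODE for GRCm38 (46146 of 46981 identifiers). Limma 3.58.1 (R 4.3.3; trend and robust options) was fitted to log2(RPM + 0.5), so changes of low genes are understated, on genes with at least 1 RPM in 3 libraries. The 12 libraries of a cohort entered each fit, and all 24 the comparison of cohorts. P-values were adjusted by Benjamini-Hochberg over all genes tested, two-sided, with a threshold of 0.05. Whether the replicates were separate mice is not stated, so the p-values reflect only how far these samples differ, which may be technical. The scripts were tested on simulated data. Alternatives included edgeR 4.0.16 (quasi-likelihood) and DESeq2 1.42.0 on recovered counts.

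The genes, the lists and the tests were chosen with earlier results of these data known. Log2 changes are given for the 3 genes of each role with the smallest p in activated Acly KO against WT and in Acly WT activation, and elsewhere for Ccnb1, Ube2c and the 2 genes with the smallest p, with the 2 smallest changes on activation. Cdk1, Cdc25b, Cdc25c, Anln, Ncapd2 and other genes outside that rule were named after their values were seen. So were the T cell gene Thy1 and Eomes of the CD8 and natural killer cell genes.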

Additional observations from a re-analysis of the deposited data

How the results depend on the processing

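Depth limits the genes that are low at rest, and the cause of the shifts listed here was not tested. Counts for which no share of all genes in the same fit is given, here or above, cannot be set against the whole table. In activated Acly KO against WT cells, genes lower at an unadjusted p under 0.05 numbered 6 with quantile normalization, 22 with only the compared groups fitted and 17 with edgeR, and 4 to 13 with single libraries left out, 4 being reached without KO activated 3 or WT activated 2; Ube2c, 1 gene, was called under those fits of only the compared groups and edgeR. In resting cells 1 gene was called higher by limma without trend and robust options.

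On activation of Acly WT cells, genes called lower numbered 1 after TMM-style scaling, 2 with limma without trend and robust, 2 with edgeR, 0 with DESeq2 and 0 with the receptor background as a covariate, and 2 to 5 with single libraries left out. The lowest of that range came without WT activated 1, WT resting 1 or WT resting 3. The median change was 2.14 after TMM-style scaling, 2.14 with edgeR, 2.07 with DESeq2, 2.06 with the covariate and 1.496 to 1.92 with single libraries left out. For KO cells it was 1.27, 1.36, 1.40 and 1.15 under those same settings in that order, with 1 gene called lower by DESeq2 and 3 to 5 with single libraries left out, the highest without KO resting 2. With the covariate, which differs between states in every library of the cohort, 0 genes were called higher and 0 lower in either genotype, Pttg1 was at -0.77 in WT and Hmmr at 0.80 in KO cells.

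Directions of small changes turned. Ccnb1 on activation of Acly KO cells was at 0.43 after TMM-style scaling, 0.52 with edgeR, 0.51 with DESeq2, 2.13 with the covariate and -0.47 to 0.33 with single libraries left out. Ccnb1 in resting Acly cells was at 0.0070 after TMM-style scaling, 0.0704 with edgeR and -0.18 to 0.22 with single libraries left out. Leaving out single libraries gave -0.20 to 0.67 for Cenpa on WT activation and -0.0591 to 0.504 for Ube2c on KO activation.

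The median of the Acly effect minus the Pdha1 effect was -0.38 with quantile normalization, -0.41 with edgeR and -0.30 with DESeq2. In the Pdha1 cohort, DESeq2 gave medians of -0.23 for activated KO against WT and -0.35 for the interaction and 2 genes higher on WT activation. Single libraries left out gave medians of 0.0292 to 0.34 for activated KO against WT, and 0 to 5 genes higher and 0 to 3 lower on WT activation, the highest without WT activated 3. Without both libraries that stood apart, 5 were higher and 4 lower on WT activation and 1 higher on KO activation. The median on WT activation was -0.32 with a filter of 5 RPM and 0.26 with the covariate. Ube2c in activated cells was at -0.0917 with quantile normalization, -0.0102 without both libraries and -0.29 to 0.72 with single ones left out, and its interaction at 0.0885 with edgeR and -0.62 to 0.39. Ccnb1 in resting cells was at -0.0200 after TMM-style scaling, -0.12 with quantile normalization, -0.0172 with edgeR and -0.24 to 0.43 with single libraries left out, and on WT activation at -0.00733 with quantile normalization and -0.11 to 0.25.

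With the replicate number as a block (replicate block), 0 of the 50 genes and 5 of all genes were called in activated Acly KO against WT cells. Of the 50, 32 were called higher and 4 lower on WT activation and 23 higher and 3 lower on KO activation. Shares of all genes called on activation in that fit are not given, so a shift of the 50 genes and of the whole table cannot be told apart. Deviations of same-numbered Acly libraries correlated at 0.036 to 0.25 (all 18 pairs positive, 4 over 0.1, 17 best with their own number, a hint of a shared factor from the data and not from the design) and of Pdha1 libraries at -0.84 to 0.56 (5 of 18 over 0.1, 4 best with their own). As not every pair exceeded 0.1 and the labels name no shared animal or batch, the fit without the block was kept.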
